A study of Mus musculus with 8 samples.

Results

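Goblet cells of mouse colon tissue were taken from the epithelial libraries of the tissue as every cell that held at least 1 UMI of Epcam, the general epithelial surface marker, and at least 2% of its UMIs from Muc2 and Spink4 together. A UMI is a molecular tag that counts each captured RNA molecule once. The rule found 535 cells in tissue replicate 1 and 552 in tissue replicate 2, in all 1087 of 7720 Epcam-positive tissue cells and of 74808 cells that passed the same quality limits in the whole series (at least 500 genes, at least 1000 UMIs and at most 10% mitochondrial UMIs per barcode). Because Muc2 and Spink4 chose the cells, their levels are given here as a description only.

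The series holds 8 single-cell libraries, 2 each of the stroma of colon assembloids and of the epithelium of assembloids, of organoids and of colon tissue. The labels give no strain, age or treatment; the study's methods name young adult male C57BL/6 mice for all groups. Tissue crypts were released with EDTA and DTT and then made single with TrypLE. Assembloids, in which epithelial organoids grow in a gel together with cultured colon stromal cells, were opened with Liberase TL and DNase before TrypLE, and the study kept them in medium without Wnt surrogate, R-spondin 1, CHIR-99021 or noggin. Organoids, epithelium alone in full growth factor medium, were dissociated with TrypLE. The way of dissociation and the group therefore cannot be told apart, and how epithelial cells of assembloids were parted from stroma is not given in the sources used here. The study's methods call the replicates of a group biological and trace the assembloids to a pair of mice. They do not say whether the tissue and organoid libraries came from separate animals, and every p-value below measures the spread between 2 libraries.

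Goblet cells are the mucus-secreting cells of the intestinal epithelium. They assemble the gel-forming mucin MUC2 in the endoplasmic reticulum, cover it with sugars in the Golgi apparatus, store it in granules and release it together with proteins that cross-link or protect the mucus. In the colon they arise from crypt stem cells when Notch signalling is low and the transcription factor ATOH1 is active, and SPDEF drives their maturation. Deep in the crypt, secretory cells that express Reg4, Kit and Notch ligands lie next to the stem cells, while older goblet cells are carried towards the surface.

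Promoter sequence is shown for Muc2, which defines the cells, for Fcgbp, a mucus protein whose call between tissue and assembloid goblet cells changed with the setting, and for Reg4 and Mptx1, which were far higher in the tissue cells. Each line gives the 250 bases before the RefSeq start of the gene, 5′ to 3′ on the plus strand of build GRCm38.p6, and capitals mark matches to CAGCTG (an E-box of the kind that ATOH1 and other basic helix-loop-helix factors can bind) or to TGTTTNC (a forkhead motif, of the kind FOXA factors can bind) on either strand. The regions are chr7:141690090-141690339 for Muc2, chr7:28070986-28071235 for Fcgbp, chr3:98221906-98222155 for Reg4 and chr1:174330268-174330517 for Mptx1.
Muc2: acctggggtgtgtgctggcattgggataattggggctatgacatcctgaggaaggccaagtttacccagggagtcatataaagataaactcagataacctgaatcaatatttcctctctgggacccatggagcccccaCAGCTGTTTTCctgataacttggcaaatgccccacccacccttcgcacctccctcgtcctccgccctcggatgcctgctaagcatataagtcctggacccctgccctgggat
Fcgbp: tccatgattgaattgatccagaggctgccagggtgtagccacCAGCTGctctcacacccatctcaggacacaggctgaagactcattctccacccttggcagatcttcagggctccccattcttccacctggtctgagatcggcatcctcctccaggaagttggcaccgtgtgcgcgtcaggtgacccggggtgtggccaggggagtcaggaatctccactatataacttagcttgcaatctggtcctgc
Reg4: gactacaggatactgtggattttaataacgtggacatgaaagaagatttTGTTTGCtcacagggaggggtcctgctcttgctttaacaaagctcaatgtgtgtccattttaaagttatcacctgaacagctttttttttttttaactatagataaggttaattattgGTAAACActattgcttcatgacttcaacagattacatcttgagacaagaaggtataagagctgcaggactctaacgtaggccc
Mptx1: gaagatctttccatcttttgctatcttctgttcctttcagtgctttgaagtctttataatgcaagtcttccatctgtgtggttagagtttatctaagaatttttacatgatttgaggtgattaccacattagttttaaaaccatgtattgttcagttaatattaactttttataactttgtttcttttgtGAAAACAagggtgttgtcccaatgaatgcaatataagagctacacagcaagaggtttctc
The Muc2 promoter held CAGCTG, which reads the same on both strands, beginning 112 bases before the start, and the forkhead match TGTTTTC overlapped it from 108 bases before the start. The Fcgbp promoter held CAGCTG at 208 bases and no forkhead match. In Reg4 TGTTTGC lay at 201 bases and its reverse form GTAAACA at 83 bases, and in Mptx1 the reverse form GAAAACA lay at 60 bases, with no CAGCTG in either window. TTTATNG, a motif of the caudal factors CDX1 and CDX2 of the intestine, matched in none of the 4 windows. Of 32851 RefSeq promoters of the same length, 13% held CAGCTG, 17.8% held TGTTTNC and 9.8% held TTTATNG, so that such matches are common. A match is a description of the letters and not a measured binding site.

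At the limits of the rule goblet cells made up nearly equal shares of the epithelial cells in both tissue libraries. The rule took 14.1% of the 3803 Epcam-positive cells of replicate 1 (95% exact Clopper-Pearson binomial interval 13 to 15.2%) and 14.1% of the 3917 cells of replicate 2 (13 to 15.2%), a mean of 14.1% ± 0.0174 (SD, n = 2). By the same rule 0.689% of 27420 assembloid cells of replicate 1 (0.595 to 0.794%) and 2.24% of 7152 cells of replicate 2 (1.91 to 2.61%) were goblet cells, a mean of 1.46% ± 1.09 (SD, n = 2), and in organoids it found 4 of 4798 and 6 of 6400 cells. The tissue shares lay above every cultured library, but 2 libraries against 2 cannot give an exact two-sided permutation p below 0.33. The intervals cover counting error only, and a share depends on cell recovery and on the 2% limit.

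Depth and recovery differed between the libraries. Of the barcodes in the files, 32.8% and 24.1% passed the quality limits in tissue, against 53.2 to 87.1% in the assembloid and organoid libraries, and library totals ran from 99133978 to 191255856 UMIs over the 6 epithelial libraries. Tissue goblet cells carried a median of 18462 and 15171.5 UMIs and 4267 and 3810 genes, against 6153 and 3390 UMIs and 2613 and 1713 genes in the other tissue epithelial cells. Assembloid goblet cells carried a median of 8415 UMIs in replicate 1 and 19727.5 in replicate 2. Mitochondrial UMIs made up a median of 5.28% and 5.69% of the tissue goblet cells and 2.66% and 3.75% of the assembloid goblet cells. No doublet caller was run, and pairs of libraries shared between 6 and 75 passing barcodes. Of the tissue goblet cells, 16 of 535 in replicate 1 and 8 of 552 in replicate 2 had a barcode that also passed in another library, but no barcode was a goblet cell in more than 1 library.

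Single tissue goblet cells ranged widely in both defining transcripts. Muc2, the mucin itself, took a median of 1.93% of a cell's UMIs in replicate 1 and 1.88% in replicate 2, and Spink4, a small secreted Kazal-type protease inhibitor of goblet granules, a median of 1.47% and 1.34%. The sum of both ran from 2.01 to 19.3% with a median of 3.70% in replicate 1 and from 2.00 to 14.7% with a median of 3.42% in replicate 2. Each barcode counts 3′ ends, so these are shares of captured molecules. Spink4 exceeded Muc2 in 43.7% and 42.6% of the tissue goblet cells but in 97.9% and 95.6% of the assembloid goblet cells, where Muc2 had medians of 0.273% and 0.482% and Spink4 of 2.53% and 2.41%. The same rule therefore took cells in assembloids mainly for Spink4 and in tissue for either transcript.

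**Figure D1:**
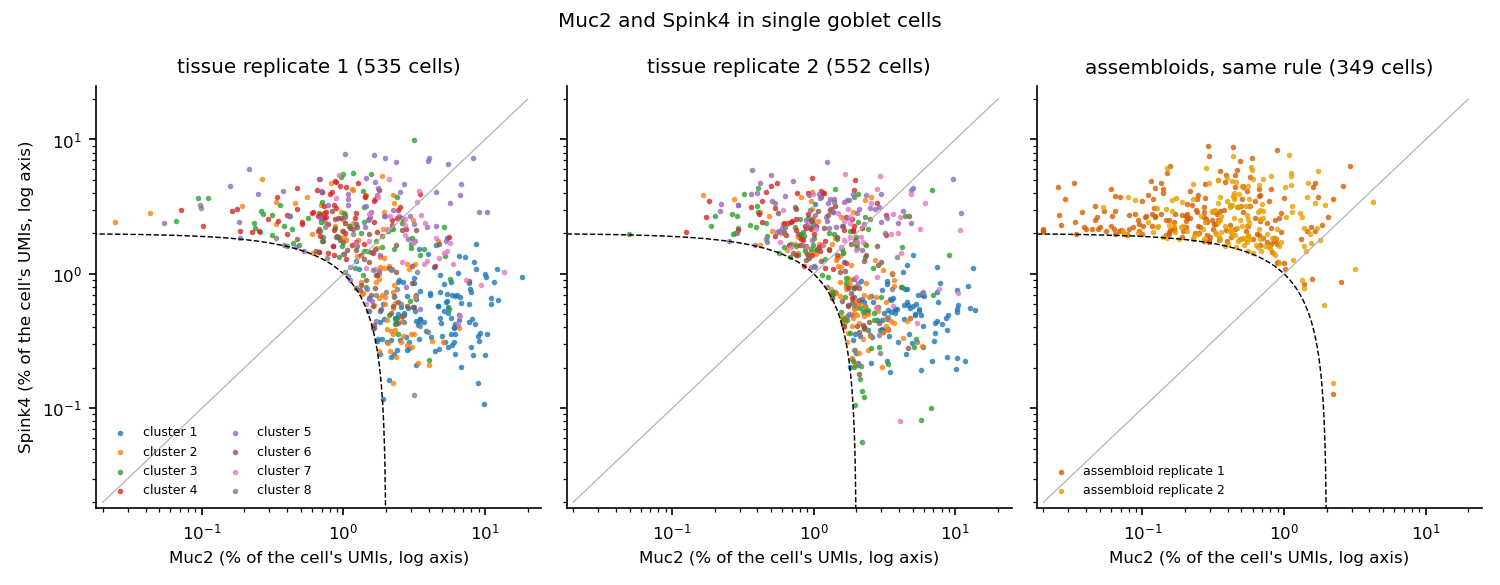
Share of a goblet cell's UMIs from Muc2 (x axis, percent, log scale) against that from Spink4 (y axis, percent, log scale), 1 point per cell, for tissue replicate 1 (535 cells), tissue replicate 2 (552 cells) and the assembloid libraries (349 cells); colours are the tissue clusters 1 to 8 or the assembloid library, the dashed line is the 2% limit, the grey line is equality, and shares under 0.02% are drawn at 0.02%. Tissue goblet cells lie on both sides of equality, with 43.7% and 42.6% of cells above it, whereas assembloid goblet cells lie almost wholly above it.

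The 2% limit cut through a gradient. In tissue 38.3% and 45.7% of the Epcam-positive cells had a summed share between 0.5 and 2%, and those cells were shallow, with a median of 1150 and 1769 UMIs. Just outside the limit, from 1.5 to 2%, stood 128 and 177 cells with a median of 6058.5 and 6795 UMIs. Just inside it, from 2 to 2.5%, stood 87 and 117 cells with 14787 and 11397 UMIs. Zg16, a lectin-like granule protein, measured 9225 and 19582.5 CPM (UMIs of a gene scaled to a common total) just outside and 17280 and 14075 CPM just inside, so cells with a high level of a goblet product lay on both sides of the limit. At 5% or more of Muc2 and Spink4, Zg16 had fallen to 1316 and 2354 CPM and Tff3, the trefoil peptide of mucus, to 1317 and 872 CPM.

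Transcripts of goblet granules were also found in nearly every other tissue cell. At least 1 UMI of Spink4 was present in 100% and 99.9% and of Muc2 in 89.3% and 93.1% of the other tissue epithelial cells, against 57.0% and 80.1% for Spink4 and 25.8% and 46.9% for Muc2 in the other assembloid cells and 16.4% and 30.5% for Spink4 in the other organoid cells. The summed CPM of the 17 secreted goblet products listed, Muc2 and Spink4 included, was 14528.9 and 21990.3 in the other tissue cells and 2556.72 and 3507.97 in the other assembloid cells. This level enters every ratio of goblet to other cells in tissue, and how much of it is RNA from outside the cell was not tested.

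Against the other epithelial cells of the same tissue library, goblet cells held secreted products, mucin glycosylation enzymes, granule genes and deep crypt secretory genes at higher levels and colonocyte and enteroendocrine genes at lower levels. Of 9092 genes with at least 10 CPM in either class, 421 were at least 2-fold higher in both libraries (4.63%) and 574 at least 2-fold lower (6.31%). Since the same cells were picked by their own transcripts, these ratios carry no test. The median gene had a log2 ratio of -0.09 in replicate 1 and -0.06 in replicate 2, on the scale log2(CPM + 1).

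Of 14 secreted goblet products counted, Muc2 and Spink4 left out, 11 were at least 2-fold higher and 2 at least 2-fold lower in goblet cells of both libraries. Mptx1, a mucosal pentraxin, stood at 31746 and 36359 CPM in goblet cells and at 2684 and 5387 CPM in the other cells. Reg4, a secreted lectin of the deep crypt, stood at 2783 and 2578 CPM against 197 and 279 CPM. Fcgbp, which forms part of the mucus network, measured 2425 and 2416 CPM against 366 and 541 CPM, and Agr2, the disulfide isomerase needed for MUC2 folding, had log2 ratios of 2.80 and 2.44. Clca1, a mucus-processing metalloprotease, had log2 ratios of 3.02 and 2.11, Zg16 of 3.03 and 1.68 and Tff3 of 2.59 and 1.44. Dmbt1, a scavenger protein, and Wfdc2, an antiprotease, were the 2 lower members, with log2 ratios of -3.17 and -2.22 and of -2.16 and -1.88. Guca2a, the precursor of guanylin, was also lower, with log2 ratios of -0.90 and -1.29.

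Single genes varied from cell to cell more than the sums show. Zg16 took a median of only 0.0530% and 0.0650% of a goblet cell's UMIs but 3.41% and 2.34% at the 90th percentile and up to 21.6% and 20.3% in 1 cell. Mptx1 took a median of 1.22% and 1.29% and 8.10% and 9.09% at the 90th percentile, with maxima of 24.3% and 20.8%. Agr2 was more even, at a median of 0.705% and 0.775%. Reg4 was detected in 85.6% and 87.1% of goblet cells at a median share of 0.0992% and 0.0933%.

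Of 22 glycosylation enzymes counted, 16 were at least 2-fold higher and 1 was lower. B3gnt6, which makes the core 3 O-glycan of colonic mucin, measured 20.9 and 26.5 CPM in goblet cells against 1.11 and 1.43 CPM in other cells. Galnt5, which starts O-glycans, had log2 ratios of 2.72 and 2.32, Gcnt3, the core 2 and core 4 branching enzyme, of 2.77 and 2.21, and Chst4, a GlcNAc sulfotransferase, of 2.26 and 2.06. B4galnt3 went the other way, with log2 ratios of -1.69 and -1.76. Cmah, which is not on the list and hydroxylates sialic acid, was among the 15 most enriched genes, at 61.8 and 56.1 CPM against 2.91 and 4.17 CPM.

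Genes of the endoplasmic reticulum followed, with 14 of 22 at least 2-fold higher and none lower. Creb3l4, a membrane-bound transcription factor of secretory cells, had log2 ratios of 3.24 and 2.72, Ern2, the IRE1-type stress sensor of mucous cells, of 2.30 and 1.96, and Pdia5, a disulfide isomerase, of 2.27 and 2.02. Hspa5, the chaperone BiP, measured 778 and 987 CPM against 317 and 385 CPM. Ddit3, the stress factor CHOP, was not enriched, with log2 ratios of -0.29 and -0.11.

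Of 8 secretory lineage transcription factors counted, 4 were at least 2-fold higher. Atoh1 stood at 162 and 154 CPM in goblet cells against 16.5 and 25.6 CPM in other cells, and Spdef at 149 and 220 CPM against 15.4 and 29.7 CPM. Gfi1, a repressor downstream of ATOH1, had log2 ratios of 2.35 and 1.99 and Foxa3 of 2.21 and 2.02. Klf4, often named as a goblet factor, was at similar levels in both classes, with log2 ratios of -0.17 and -0.30.

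Of 19 granule and ion transport genes, 16 were higher and 1 lower. Rep15, a Rab15 effector, had log2 ratios of 3.24 and 2.51, Best2, the bestrophin anion channel of colonic goblet cells, of 3.01 and 2.36, Slc12a8 of 2.81 and 2.38 and Kcnma1, a large-conductance potassium channel, of 2.28 and 1.83. The lower member was Cftr, the chloride and bicarbonate channel, at 74.6 and 92.4 CPM against 217 and 217 CPM. Vamp8, a SNARE of granule release, was not higher, with log2 ratios of -0.54 and -0.64.

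Receptors and immune sensing genes were divided. Of 10 counted, 2 were at least 2-fold higher and 3 lower. The muscarinic acetylcholine receptors Chrm3 and Chrm1 had log2 ratios of 2.60 and 2.15 and of 1.90 and 1.78. The inflammasome genes Nlrp6, Il18 and Casp1 had log2 ratios of -2.80 and -2.31, -3.04 and -2.61, and -1.40 and -1.29. Among the most enriched genes outside the lists were Ffar2, the short-chain fatty acid receptor, at 89.9 and 85.9 CPM against 8.50 and 12.0 CPM, and Ramp1, the partner subunit of the CGRP receptor, at 668 and 664 CPM against 60.0 and 93.1 CPM.

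All 4 counted deep crypt secretory and Notch ligand genes were at least 2-fold higher. Kit, the stem cell factor receptor, measured 212 and 152 CPM in goblet cells against 28.6 and 31.3 CPM, Dll4 had log2 ratios of 2.07 and 1.65, Dll1 of 1.60 and 1.06 and Cd24a of 1.5 and 1.30. Other genes among the 15 most enriched were Plet1 (116 and 130 CPM against 4.91 and 7.88 CPM), the matricellular gene Ccn3 (591 and 608 CPM against 32.4 and 52.4 CPM), the long noncoding RNA Meg3 (211 and 294 CPM against 19.7 and 21.1 CPM), the chemokine Ccl6 (1878 and 1921 CPM against 159 and 232 CPM) and the collagen Col8a1 (179 and 164 CPM against 15 and 20.1 CPM). Clps, pancreatic colipase, stood at 161 and 142 CPM against 9.30 and 19.3 CPM, and Tpsg1, Gm1123 and Hpd completed the 15.

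The 10 genes with the lowest ratios included the hormone and granin genes Chgb, Gcg, Pyy and Insl5, which stood at 1.87 and 3.55, 4.72 and 4.73, 36.7 and 30, and 9.15 and 7.33 CPM in goblet cells. The same genes stood at 131 and 224, 128 and 120, 532 and 480, and 122 and 140 CPM in the other cells. Car1, the colonocyte carbonic anhydrase, measured 35.8 and 77.7 CPM against 606 and 928 CPM, and Aqp4, a water channel, 37.3 and 49.5 CPM against 439 and 664 CPM. Cyp2c55, Fxyd4, Slc8a1 and Mep1a were the other 4 of the 10 lowest. Of the colonocyte markers 12 of 13 were at least 2-fold lower, as were 7 of 7 enteroendocrine markers and 1 of 2 tuft cell markers.

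Few stem, cycling and stress genes differed by 2-fold between goblet cells and the rest of the tissue epithelium. Of 17 cycling markers counted none differed by 2-fold in both libraries, and their median log2 ratio was -0.58 in replicate 1 and -0.09 in replicate 2. The summed CPM of the cycling list was 464 and 513 in goblet cells against 661 and 542 in the others, and that of the stem list 415 and 404 against 449 and 392. Lgr5, the crypt stem cell receptor, was lower, with log2 ratios of -1.78 and -1.39, and was the 1 of 8 stem markers past 2-fold. None of 14 immediate early and heat shock genes passed 2-fold, while Ndrg1 and P4ha1 were the 2 of 9 hypoxia and glycolysis genes that did, with log2 ratios of 2.08 and 1.81 and of 1.22 and 1.33. Summed immune markers were at 2.66 and 6.51 CPM and fibroblast and endothelial markers at 0.787 and 0.237 CPM, with Dcn, Col3a1 and Pdgfra at 0 UMIs in the goblet cells of both libraries.

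**Figure D2:**
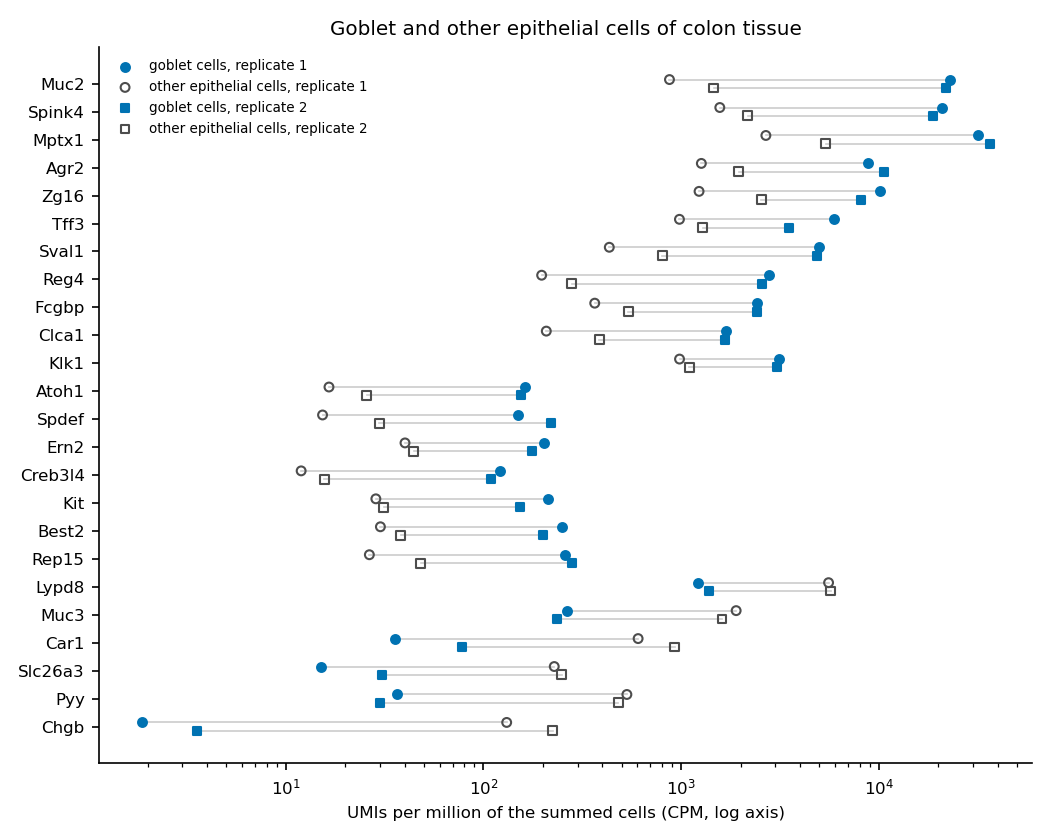
Level of 24 genes in tissue (x axis, CPM, log scale) in goblet cells (filled) and other epithelial cells (open) of replicate 1 (circles) and replicate 2 (squares). Filled symbols lie far to the right of open symbols for Muc2, Mptx1 and Kit and far to the left for Car1, Pyy and Chgb.

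Goblet cells of the tissue were not uniform. Leiden clustering of the 1087 cells gave 8 clusters, each of which held cells of both libraries, with 237, 187, 176, 136, 131, 103, 74 and 43 cells. The clusters are numbered by size and not named, and since the same transcripts formed them, the values below are a description with no test. Median depth was lowest in cluster 1 in replicate 1 (11608 UMIs) and in cluster 2 in replicate 2 (8808 UMIs), and highest in cluster 3 in both (31664.5 and 22806.5 UMIs), so depth moved with the clusters and its part in them was not tested.

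Cluster 1 held the cells richest in Muc2, at 5.06% and 4.90% of UMIs in replicates 1 and 2, with Spink4 at 0.643% and 0.611%. Its cells had a median of 6.58% and 7.85% mitochondrial UMIs, against 5.28% and 5.69% over all tissue goblet cells, and the part of this in its profile was not tested. Its leading genes were Meg3, at 1081 and 1387 CPM against 46.3 and 136 CPM in the other goblet cells, and Col8a1, at 677 and 671 CPM, together with Rian, Ptprt, Dlg2 and Slit2. Chrm3 measured 398 and 356 CPM there against 37.9 and 48.5 CPM elsewhere. The glycosylation list summed to 10161.5 and 9926 CPM against 4807 and 4781 CPM and the endoplasmic reticulum list to 8402 and 9240 CPM against 5210 and 6013 CPM. Zg16 was low in this cluster, at 446 and 647 CPM. Cluster 2 was led by Cacna1c, a calcium channel subunit, at 281 and 258 CPM against 88.7 and 62.7 CPM, with Ms4a12 and Gal3st2c.

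Cluster 4 stood at the other end of the Muc2 to Spink4 range, with Muc2 at 1.05% and 1.11% and Spink4 at 2.83% and 2.57% of UMIs. Reg4 was among its leading genes, at 4417 and 4284 CPM against 2488 and 2307 CPM in the rest and 359 and 311 CPM in cluster 1, and Mptx1 stood at 49226 and 67861 CPM against 28588 and 31355 CPM. In cluster 5 both transcripts were high, at 2.77% and 2.19% for Muc2 and 3.69% and 3.30% for Spink4. Its leaders included Nupr1, a stress-responsive chromatin protein, at 934 and 1139 CPM, Mt3 and Wfdc18, and Retnlb, an antibacterial resistin-like peptide, measured 55.6 and 354 CPM there against 26.8 and 104 CPM. Leading genes of cluster 7 included Fkbp11 and Serp1 of protein folding and secretion. Its endoplasmic reticulum list summed to 7804 and 8749 CPM against 5544 and 6187 CPM, with Fkbp11 at 275 and 381 CPM and Serp1 at 354 and 449 CPM.

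Cluster 6 carried most of the Zg16. This gene stood at 69181 and 62642 CPM in its 103 cells against 4219 and 3280 CPM in the other goblet cells. Clca1 measured 9562 and 10116 CPM against 913 and 907 CPM, Fcgbp 11801 and 12065 CPM against 1494 and 1556 CPM, and Tff3 27995 and 20578 CPM against 3721 and 1974 CPM. Spink1, a trypsin inhibitor, was the leading gene, at 15196.5 and 9900 CPM against 337 and 245 CPM. Scnn1b, a sodium channel subunit of surface epithelium, was at 57.7 and 39.0 CPM against 2.59 and 3.61 CPM, and the colonocyte list summed to 6037 and 5870 CPM against 2664 and 3000 CPM. The secreted list thus reached 227127 and 217962 CPM there against 105700 and 106583 CPM. Immune markers summed to 1.09 and 56.3 CPM there against 2.81 and 2.06 CPM, high in replicate 2 alone. The part of RNA from colonocytes or immune cells, or of doublets, in this cluster was not tested.

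Cluster 3, the deepest, had among its leading genes Muc3, a membrane mucin, at 915 and 638 CPM against 67.2 and 96.6 CPM, Cftr, at 208 and 231 CPM against 34.0 and 44.6 CPM, and B4galnt3 at 149 and 89.5 CPM against 6.54 and 10.2 CPM. Its colonocyte list summed to 4015 and 3919 CPM against 2651 and 2999 CPM, and the part of doublets in it was not tested. Cluster 8, with 22 cells in replicate 1 and 21 in replicate 2, had the highest level of cycling genes. Mki67, the proliferation antigen, stood at 957.5 and 881 CPM there against 29.4 and 40.0 CPM, and Top2a, the mitotic topoisomerase, at 776 and 698 CPM against 22.7 and 34.1 CPM. The cycling list summed to 4091 and 3863 CPM in cluster 8, whereas in the other 7 clusters it lay between 106 and 755 CPM, highest in cluster 3. At least 1 UMI of Mki67 was present in 22.6% and 25.2% of all tissue goblet cells at full depth and in 4.30% and 4.53% with cells thinned to 1000 UMIs, while cluster 8 held 4.11% and 3.80% of the cells.

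**Figure D3:**
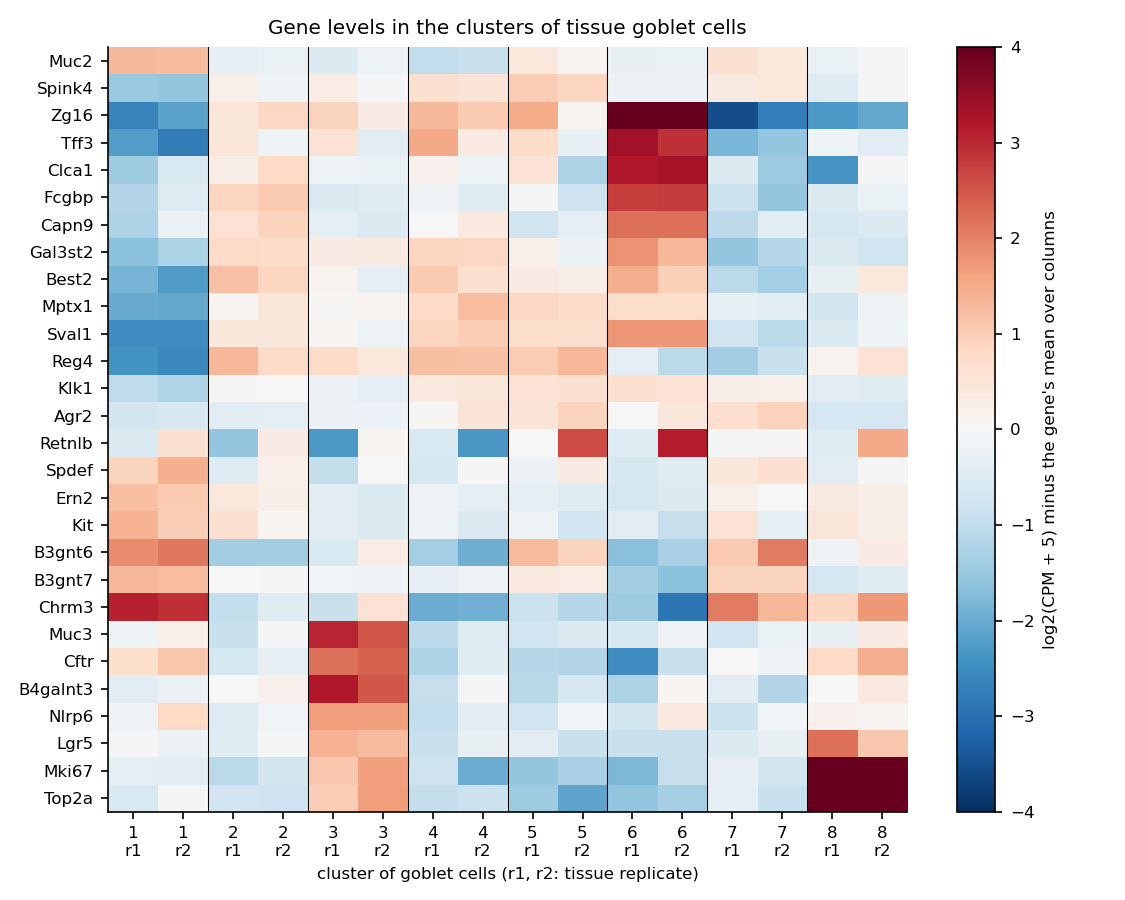
Level of 28 genes in the 8 clusters of tissue goblet cells, 1 column per cluster and library, as log2(CPM + 5) minus the gene's mean over the 16 columns (colour scale). The columns of replicate 1 and replicate 2 resemble each other within a cluster, with Chrm3 high in cluster 1, Zg16 and Clca1 in cluster 6 and Mki67 in cluster 8.

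The relation of single genes to Muc2 and Spink4 within these cells is given as a description only, since both transcripts chose the cells. With every cell thinned to 1000 UMIs, Spearman's rho of their counts was -0.51 over the 535 cells of replicate 1 and -0.51 over the 552 of replicate 2. The rule sets a floor on the sum of both, whose part in the negative value was not tested, and cells of 1 library share depth and composition. Reg4 followed Spink4 with rho 0.52 and 0.50 and ran against Muc2 with -0.46 and -0.49, and Agr2 followed Spink4 with 0.51 and 0.60.

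Goblet cells of tissue and of assembloids were then compared, 535 and 552 tissue cells against 189 and 160 assembloid cells, as 1 sum of UMIs per library. Levels in this comparison are CPM after TMM scaling, and adjusted p-values come from edgeR's quasi-likelihood test with Benjamini-Hochberg adjustment over all genes tested. The question is how goblet cells of the native colon differ from goblet cells grown beside stroma. Of 12092 genes tested, 5784 passed an adjusted p of 0.05 (47.8%), 2739 higher in tissue (22.7%) and 3045 lower (25.2%), and 6725 had an unadjusted p below 0.05. With so high a background, a share of a gene list near these values is no result about that list. The scaling matters: with no TMM scaling 7300 genes passed, of which 5890 were higher (80.7% against 47.4%), the median log2 difference moved from 0.05 to 0.71, and 379 of the 5784 genes turned sign. Composition moved with the groups: ribosomal protein genes took 15.7% and 15.2% of the UMIs of tissue goblet cells and 28.7% and 25.8% of those of assembloid goblet cells, and the TMM factors were 1.26 and 1.27 against 0.753 and 0.831. Its part in the differences was not tested.

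Of 3 components of the mucus network, the difference was called in all settings run for Clca1 and changed with the setting for Fcgbp and Zg16. Fcgbp stood at 1926 and 1905 in tissue and 1398 and 1516 in assembloid goblet cells, a log2 difference of 0.39 (SE 0.17) that did not pass the edgeR test (adjusted p = 0.0862). Under 7 other settings Fcgbp did pass, at 0.44 with DESeq2 (adjusted p = 0.0206), 0.48 with no low-count filter (adjusted p = 0.0463), 1.06 without TMM scaling, 0.68 at a 1% limit, 0.62 without the cells with most UMIs, 1.12 with cells thinned to equal depth (adjusted p = 0.0014) and 0.53 without assembloid replicate 2 (adjusted p = 0.00695). At a 5% limit it turned to -0.31, with no call. Zg16 stood at 8012 and 6419 against 4196 and 3809, 0.85 higher on the log2 scale (SE 0.20, adjusted p = 0.00928), but among cells with at least 5% Muc2 and Spink4 the sign turned to -1.76 (adjusted p = 0.000271), and without tissue replicate 1 the call was lost (0.70, adjusted p = 0.184). Clca1 was higher in tissue, at 1346 and 1310 against 150 and 138 (log2 difference 3.21, SE 0.18, adjusted p = 1.21e-05). The groups of each of these 3 genes did not overlap, which is a description and no support for a call. An exact two-sided permutation of 2 libraries against 2 cannot give a p below 0.33.

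Secreted peptides changed in both directions. Tff3 was lower in tissue goblet cells, at 4697 and 2758 against 24134 and 18891 (log2 difference -2.53, SE 0.30, edgeR adjusted p = 0.000331). Retnlb was at 23.7 and 103 against 749 and 792 (-3.61, SE 0.57, adjusted p = 0.00128), and Ang4, a bactericidal ribonuclease, at 34.1 and 78.2 against 426 and 319 (-2.73, SE 0.36, adjusted p = 0.000556). Agr2 was lower by a smaller step, at 7012 and 8363 against 13977 and 19259 (-1.11, SE 0.24, adjusted p = 0.00533). This call was lost without TMM scaling, where the difference shrank to -0.45, and without tissue replicate 1, where it stayed at -0.98.
Higher in tissue were Reg4, at 2211 and 2033 against 450 and 667 (log2 difference 1.92, SE 0.22, adjusted p = 0.000307), Klk1, a kallikrein protease, at 2498 and 2420 against 466 and 493 (2.36, SE 0.18, adjusted p = 3.4e-05), and Sval1 at 3937 and 3838 against 487 and 955 (2.42, SE 0.30, adjusted p = 0.000435). These sizes depended on the setting: at a 5% limit the difference was 0.93 for Reg4, 1.10 for Sval1 and -4.93 for Tff3, and without TMM scaling 2.58, 3.07 and -1.85, with each call kept. Mptx1 had 25214 and 28670 in tissue and no UMI in the assembloid goblet cells, at least 36449-fold higher in tissue when 3 UMIs over both assembloid libraries, scaled by TMM in the same way, are taken as the floor. Over the list 7 of 15 secreted products tested were higher and 4 lower (median log2 difference 0.39, and 0.39 with Mptx1 set to its bound), against 10 and 3 without TMM scaling, with 22.7% and 25.2% of all genes tested higher and lower. Mptx1, counted among the higher genes, entered the test through its level in tissue and could pass only upwards.

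**Figure D4:**
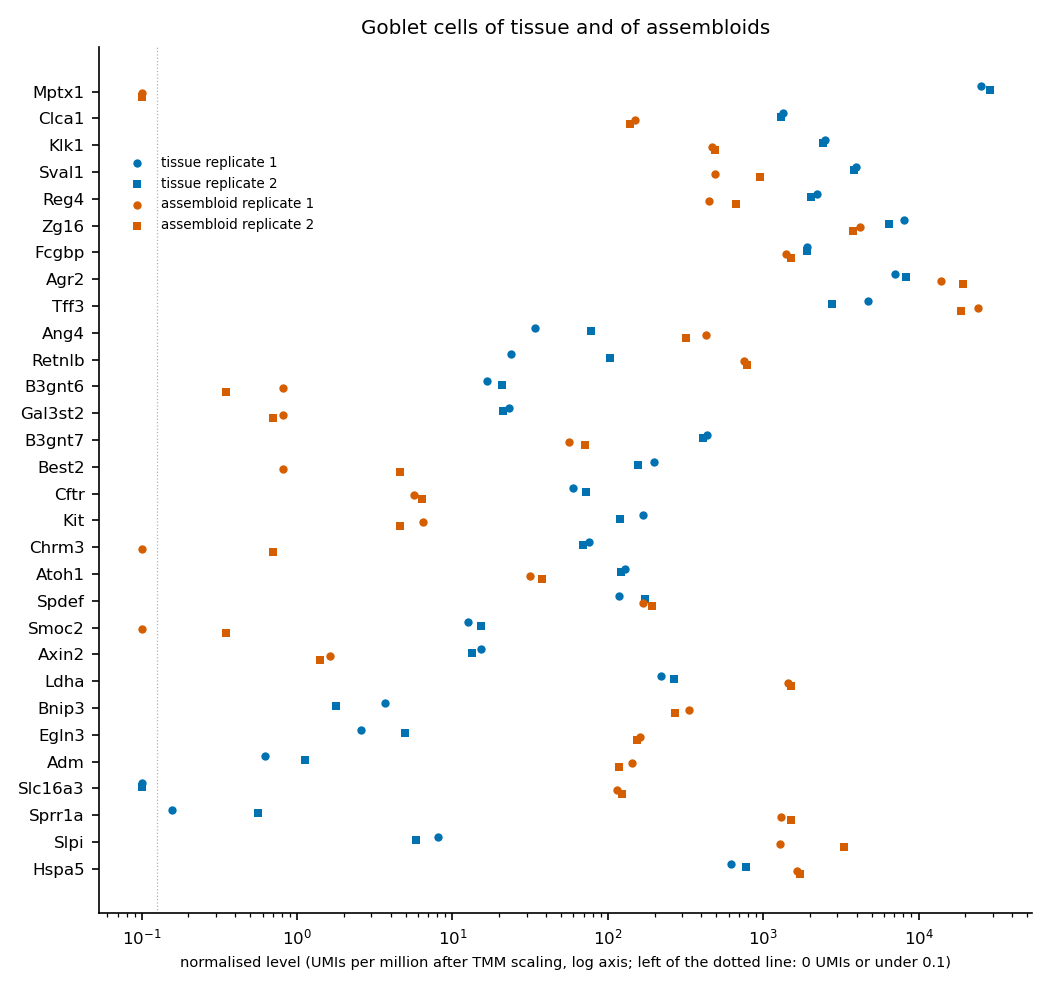
Level of 30 genes (x axis, CPM after TMM scaling, log scale) in goblet cells of the 2 tissue and 2 assembloid libraries, 1 point per library; points left of the dotted line are at 0 or under 0.1. Tissue points lie right of assembloid points for Clca1, Reg4, Best2 and Kit, left of them for Tff3, Retnlb, Ldha and Bnip3, and close to them for Fcgbp and Spdef.

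Of 23 glycosylation enzymes tested, 14 were higher and 3 lower in tissue goblet cells (17 and 2 without TMM scaling), with a median log2 difference of 0.63. Over all genes tested 22.7% were higher and 25.2% lower. B3gnt7, which extends poly-N-acetyllactosamine chains, stood at 436 and 409 against 56.6 and 71.7 (log2 difference 2.70, SE 0.18, edgeR adjusted p = 2.34e-05), and St6galnac6, a sialyltransferase, at 535 and 571 against 89.0 and 109 (2.47, SE 0.18, adjusted p = 3.13e-05). B3gnt6 was at 16.6 and 20.9 against 0.809 and 0.351, where the assembloid values rest on 2 UMIs, a ratio of 37.9 on the same TMM scale with an exact counting interval of 10.4 to 314. The galactose sulfotransferase Gal3st2 rests on 3 UMIs in assembloids, with a ratio of 30.3 (10.3 to 147), its near copies could share reads, and its call was lost at a 5% limit (log2 difference 1.63, adjusted p = 0.159). B3gnt6 and Gal3st2 entered the test through their level in tissue and could pass only upwards, so the count of higher enzymes is partly set by the filter.
The 3 lower enzymes were Gcnt3, at 65.8 and 61.2 against 180.5 and 191.1 (-1.55, SE 0.15, adjusted p = 0.000129), Galnt3 (-0.90, SE 0.17, adjusted p = 0.003) and St3gal1 (-2.92, SE 0.63, adjusted p = 0.00597). The calls of Galnt3 (-0.75) and St3gal1 (-2.28) were lost without tissue replicate 1. That of Galnt3 was lost also without TMM scaling (-0.22), at a 5% limit (-0.32) and with thinned cells (-0.34).

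Of 22 endoplasmic reticulum genes 5 were higher and 8 lower in tissue, beside 22.7% and 25.2% of all genes tested. The median log2 difference was -0.17 with TMM scaling and 0.50 without, where 10 were higher and 4 lower, so the list has no fixed direction. Among the 8 lower genes, Hspa5 stood at 618 and 778 against 1648 and 1721 (log2 difference -1.27, SE 0.19, edgeR adjusted p = 0.000893), and Calr (-1.35, SE 0.18, adjusted p = 0.000624), Atf4 (-1.24, SE 0.17, adjusted p = 0.000624) and Ddit3 (-1.95, SE 0.19, adjusted p = 0.000119) passed in the same direction. Among the 5 higher were Ern2, at 160 and 139 against 44.5 and 61.5 (1.46, SE 0.19, adjusted p = 0.000566), Creb3l4 (2.00, SE 0.20, adjusted p = 0.000129) and Creb3l1 (1.03, SE 0.16, adjusted p = 0.00111).

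Among transcription factors 4 of 9 were higher and none lower, beside 22.7% and 25.2% of all genes tested. Atoh1 stood at 128 and 122 against 31.6 and 37.6 (log2 difference 1.83, SE 0.17, edgeR adjusted p = 0.000104). Spdef stood at 119 and 173 in tissue and 169 and 192 in assembloids, overlapping ranges, with a difference of -0.31 (SE 0.21, adjusted p = 0.241) whose sign turned without TMM scaling (0.35), at the 5% limit (0.48) and with thinned cells (0.10).

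Several channel genes were higher in tissue. Best2 was at 198 and 158 in tissue goblet cells and 0.809 and 4.57 in assembloid goblet cells (log2 difference 5.72, SE 0.36, edgeR adjusted p = 1.82e-05). Cftr was at 59.3 and 72.9 against 5.67 and 6.32 (3.43, SE 0.24, adjusted p = 2.74e-05), and Scin, the actin-severing protein scinderin, differed by 4.34 (SE 0.28, adjusted p = 1.95e-05). Kcnma1 (1.85, SE 0.18, adjusted p = 0.00011) and Slc12a2, the sodium, potassium and chloride cotransporter (1.37, SE 0.22, adjusted p = 0.00156), were higher as well.
Over the granule and transport list 10 of 19 were higher and 5 lower, against 12 and 0 without TMM scaling. For this list and the receptor list below, 22.7% of all genes tested were higher and 25.2% lower. Vamp8 was among the 5 lower (-0.80, SE 0.15, adjusted p = 0.00297). Its call was lost without TMM scaling (-0.13), with thinned cells (-0.61) and without tissue replicate 2 (-0.76). Chrm3 had 1705 UMIs in tissue and 2 in assembloid goblet cells, a ratio of 148 on the TMM scale (40.9 to 1222), and Chrm1 had 201 and 2, a ratio of 17.4 (4.77 to 145). Both receptors entered the test through their level in tissue and could pass only upwards. Over the receptor and immune sensing list 3 of 11 genes tested were higher, Chrm3, Chrm1 and Il18 (1.91, SE 0.40, adjusted p = 0.00489), and 4 lower, with a median log2 difference of -0.42. Il13ra1, a receptor chain for interleukin 13, was at 85.6 and 86.9 against 140.0 and 160.9 (-0.81, SE 0.15, adjusted p = 0.00323), and Nlrp6, Il4ra and Il10rb were the other 3. Without TMM scaling 3 were higher and 0 lower.

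Deep crypt and stem genes were higher in tissue goblet cells. Kit stood at 168 and 120 against 6.47 and 4.57 (log2 difference 4.79, SE 0.30, edgeR adjusted p = 1.82e-05), and the Notch ligand Dll4 differed by 2.27 (SE 0.35, adjusted p = 0.00119). Dll1 rested on 3 UMIs in the assembloid cells, a ratio of 17.5 (5.92 to 85.2). At a 5% limit the calls of both ligands were lost, Dll4 with a difference of 1.31 (adjusted p = 0.215) and Dll1 with an adjusted p of 0.118. Of the deep crypt list 4 of 5 were higher and none lower, beside 22.7% and 25.2% of all genes tested. Dll1 entered the test through its level in tissue and could pass only upwards.
Axin2, a direct target of Wnt signalling, was at 15.3 and 13.3 against 1.62 and 1.40 (3.27, SE 0.39, adjusted p = 0.000326). Lrig1, a negative regulator of growth factor receptors, was at 136 and 135 against 19.4 and 28.5 (2.44, SE 0.20, adjusted p = 5.26e-05), and Rgmb, a BMP co-receptor, differed by 2.79 (SE 0.25, adjusted p = 8.46e-05). Smoc2, a stem cell matrix protein, had 324 UMIs against 1, a ratio of 56.2 (10.0 to 2227). In all 9 of 10 stem markers were higher and none lower (6 and 0 with DESeq2), with a median of 2.61. With the 1 gene at 0 in assembloids set to its bound the median was 2.33. Axin2, Smoc2 and the gene at 0 entered the test through their level in tissue and could pass only upwards. The count of stem markers is therefore partly set by the filter. Over all genes tested 22.7% were higher and 25.2% lower. The other tissue epithelial cells also held more Axin2 and Lrig1 than the other assembloid cells, with log2 differences of 0.89 and 1.16.

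Beside 25.2% of all genes tested, 12 of 12 hypoxia and glycolysis genes were lower in tissue goblet cells, and 12 of 12 also without TMM scaling. Adm, a member with 8 and 12 UMIs in tissue goblet cells, entered the test through its level in assembloids and could pass only downwards. The count is therefore partly set by the filter. Of the 12 genes Pdk1, a pyruvate dehydrogenase kinase (-1.33, SE 0.20, edgeR adjusted p = 0.0011), lost its call at a 5% limit (-0.34, adjusted p = 0.582) and with thinned cells (-1.01, adjusted p = 0.105). Ldha, lactate dehydrogenase A, stood at 218 and 265 against 1443 and 1520 (log2 difference -2.62, SE 0.18, edgeR adjusted p = 2.69e-05), and Egln3, an oxygen-sensing prolyl hydroxylase, at 2.58 and 4.94 against 162 and 154 (-5.41, SE 0.27, adjusted p = 8.89e-06). Bnip3, a mitophagy receptor, was at 3.67 and 1.77 against 333 and 271 (-6.75, SE 0.31, adjusted p = 5.8e-06). The same genes were lower in the other epithelial cells of tissue, with log2 differences of -1.85 for Ldha, -4.72 for Egln3 and -6.45 for Bnip3. The monocarboxylate transporter Slc16a3 had no UMI in tissue goblet cells and 114 and 123 in assembloid goblet cells, at least 941-fold lower in tissue on the TMM scale.

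Immediate early genes moved in both directions, with 6 of 14 higher and 4 lower (8 and 2 without TMM scaling). Over all genes tested 22.7% were higher and 25.2% lower. Fosb was at 150 and 213 against 17.8 and 54.1 (log2 difference 2.21, SE 0.38, edgeR adjusted p = 0.00189) and Ier3 was lower in tissue (-3.73, SE 0.19, adjusted p = 9.9e-06). Most cycling genes did not pass the test, with 4 of 17 higher and 1 lower (10 and 0 without TMM scaling). The share higher was near the 22.7% of all genes tested, so it is no result about the list. Without TMM scaling 5890 of 12092 genes were higher. Mki67 was at 65.6 and 63.6 against 24.3 and 23.9 (1.43, SE 0.17, adjusted p = 0.00032) and Cenpf differed by 2.02 (SE 0.32, adjusted p = 0.00132), although at a 1% limit on Muc2 and Spink4 the Cenpf difference was 0.04, and at a 5% limit both calls were lost at differences of about the same size (1.56, adjusted p = 0.173 for Mki67 and 1.87, adjusted p = 0.127 for Cenpf). The Mki67 call was also lost with thinned cells (0.73, adjusted p = 0.244). Ube2c, the lower gene (-0.91, SE 0.16, adjusted p = 0.00229), lost its call without TMM scaling.

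Markers of other cell types moved with the groups. Summed immune markers stood at 2.66 and 6.51 CPM in tissue goblet cells and 23.8 and 39.1 CPM in assembloid goblet cells, and fibroblast and endothelial markers at 0.787 and 0.237 CPM against 87.8 and 31.0 CPM. Of 11 immune and 8 fibroblast and endothelial markers only 3 and 3 had enough UMIs to be tested, through their level in assembloids, so no count of calls is given. The fibroblast matrix genes Dcn and Col3a1 had no UMI in tissue goblet cells, and 26.2 and 15.2 CPM and 36.6 and 9.05 CPM in assembloid goblet cells. The macrophage gene Lyz2 had 3 UMIs in tissue against 106 in assembloids. Colonocyte markers differed in both directions, 6 of 13 higher and 4 lower, beside 22.7% and 25.2% of all genes tested. Among these markers were Muc3 (log2 difference 1.93, SE 0.17, edgeR adjusted p = 8.08e-05) and Car1 (-2.63, SE 0.33, adjusted p = 0.000425). The part of RNA from other cells in the goblet cell differences was not tested.

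Among all genes at or above the level needed to be named, the 10 with the highest tissue level relative to assembloids were Mptx1, the sulfotransferase Gal3st2c (102 and 87.5 against no UMI, at least 130-fold), the receptor tyrosine kinase gene Ror1 (at least 101.5-fold), the phosphatase gene Ptprt (at least 77.1-fold), Chrm3, Stox2, Dlg2, the serotonin receptor gene Htr4, Shank2 and Col8a1. The last 6 had between 1 and 3 UMIs in assembloid goblet cells, with ratios from 148 for Chrm3 to 385 for Stox2 (counting interval 69.04 to 15215). All 10 entered the test through their level in tissue and could pass only upwards. Cluster 1 of the tissue goblet cells was led by several of the same genes, Ptprt, Dlg2, Chrm3 and Col8a1.
The 10 lowest included Slc16a3, Sprr1a, a cornified envelope protein, at 0.156 and 0.560 against 1311 and 1509 (log2 difference -11.94, SE 0.37, edgeR adjusted p = 2.99e-06), Mmp7, the matrix protease matrilysin, at 0.234 and 0.560 against 282 and 170 (-9.11, SE 0.41, adjusted p = 5.8e-06), and Slpi, the secretory leukocyte protease inhibitor, at 8.12 and 5.78 against 1280 and 3336 (-8.37, SE 0.54, adjusted p = 2e-05). Adm, adrenomedullin, was at 0.625 and 1.12 against 143 and 118 (-7.22, SE 0.27, adjusted p = 2.99e-06) and Ly6c1 differed by -8.48 (SE 0.31, adjusted p = 2.99e-06). Gm1673, Gm41609, Gm29585 and Trp53cor1 completed the 10. Tissue goblet cells of replicates 1 and 2 held 2 and 6 UMIs of Sprr1a, 3 and 6 of Mmp7, 2 and 5 of Ly6c1 and 8 and 12 of Adm. Sprr1a, Mmp7, Ly6c1, Adm, Slc16a3, Gm1673 and Trp53cor1 entered the test through their level in assembloids and could pass only downwards. Every gene of both sets of 10 also passed in the same direction in the other epithelial cells, where 10760 of 18692 genes passed. Log2 differences there were 16.8 for Mptx1, 11.6 for Gal3st2c, 1.67 for Col8a1, -7.01 for Slc16a3, -6.81 for Sprr1a and -9.77 for Gm41609. The direction of these differences between tissue and assembloids was thus not particular to goblet cells. Their size was not always shared. In the comparison of ratios below, Ror1, Col8a1, Stox2, Dlg2, Chrm3, Slc16a3 and Sprr1a passed, though several of these calls depended on the setting.

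The last comparison asked whether goblet cells differ from their neighbours by the same amount in tissue and in assembloids. For each gene the log2 ratio of goblet to other epithelial cells of the same library was compared between the groups, in an edgeR fit with a term for each library. Of 16403 genes tested, 2887 passed an adjusted p of 0.05 (17.6%), 1172 with a higher ratio in tissue (7.15%) and 1715 with a lower one (10.5%), and 4857 had an unadjusted p below 0.05. Without TMM scaling 3335 passed, of which 2387 were higher (71.6% against 40.6%), the median moved from 0.06 to 0.36 and none of the 2887 genes turned sign.

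Most cycling genes had a higher ratio in tissue, though several of these calls depended on the setting. The log2 ratio of goblet to other cells for Mki67 was -0.28 and 0.25 in the tissue libraries and -2.35 and -2.0 in the assembloid libraries, a difference of 1.87 (SE 0.23, edgeR adjusted p = 6.07e-05). For Top2a the ratios were -0.37 and 0.12 against -2.21 and -2.65 (difference 2.06, SE 0.19, adjusted p = 7.16e-06), and for Cenpf -0.70 and -0.41 against -3.26 and -2.98 (2.44, SE 0.26, adjusted p = 2.1e-05). With cells thinned to equal depth the calls of Mki67 (1.45, adjusted p = 0.0774) and Cenpf (2.89, adjusted p = 0.13) were lost, and the Cenpf call was lost also at limits of 1% (0.57, adjusted p = 0.143) and 5% (2.31, adjusted p = 0.0652). The Top2a call was kept in each alternative run. Over the list 14 of 17 passed upwards and none downwards, 17 without TMM scaling and 11 with DESeq2, beside 7.15% of all genes. The cycling list summed to 1105 and 900 CPM in the other assembloid cells and 661 and 542 CPM in the other tissue cells, so the other cells differed in the same genes.

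Stem markers also passed upwards in 6 of 10, and none downwards. Over all genes tested, for this list and those below, 7.15% passed upwards and 10.5% downwards. The ratios of Axin2 were -0.24 and 0.05 in tissue and -2.11 and -1.99 in assembloids (difference 2.34, SE 0.46, edgeR adjusted p = 0.0029), and those of Rnf43, a Wnt receptor ligase, -0.34 and -0.24 against -1.78 and -1.43 (1.02, SE 0.22, adjusted p = 0.00535). In the granule and transport list 3 of 19 were higher and 8 lower (median -0.47), and of the receptor and immune sensing list 1 of 13 was higher and 4 lower (4 against 6 and 1 against 1 without TMM scaling). Among the upward exceptions, Best2 was enriched in tissue goblet cells with ratios of 3.01 and 2.36 and not in assembloids, at -1.70 and 0.43 (difference 2.62, SE 0.49, adjusted p = 0.00193, but 0.10 with DESeq2). Chrm3 had ratios of 2.60 and 2.15 against -1.52 and -0.66 (4.19, SE 0.67, adjusted p = 0.000598). At a 5% limit the calls of Axin2 (2.32, adjusted p = 0.314), Rnf43 (0.40, adjusted p = 0.815), Best2 (2.10, adjusted p = 0.327) and Chrm3 (2.76, adjusted p = 0.103) were lost. With thinned cells they were lost as well, at 8.82 for Axin2 (adjusted p = 0.251), 1.01 for Rnf43 (adjusted p = 0.555), 3.13 for Best2 (adjusted p = 0.0644) and 8.63 for Chrm3 (adjusted p = 0.29). Ndrg1 had 2.08 and 1.81 against -0.06 and -0.23 (1.84, SE 0.14, adjusted p = 1.35e-06).

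Secreted products went the other way, with 13 of 15 passing downwards and none upwards (11 without TMM scaling). Over all genes tested 10.5% passed downwards. Klk1 had log2 ratios of 1.68 and 1.48 in tissue and 5.03 and 4.63 in assembloids (difference -3.63, SE 0.16, edgeR adjusted p = 7.62e-09). Retnlb had 3.17 and 2.85 against 6.70 and 5.64 (-3.45, SE 0.30, adjusted p = 3.69e-06). Spdef, a transcription factor and no secreted product, had 3.20 and 2.85 against 4.51 and 3.91 (-1.57, SE 0.18, adjusted p = 4.64e-05). In the transcription factor list 4 of 9 passed downwards and none upwards. Guca2a was lower in goblet than in other cells of tissue, at -0.90 and -1.29, and higher in assembloids, at 2.65 and 2.41 (-3.91, SE 0.17, adjusted p = 5.2e-09). The secreted list in the other cells stood at 14528.9 and 21990.3 CPM in tissue and 2556.72 and 3507.97 CPM in assembloids, and the part of this level in the smaller tissue ratios was not tested. Colonocyte markers also passed downwards in 8 of 13, and no deep crypt gene of 5 passed in either direction.

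**Figure D5:**
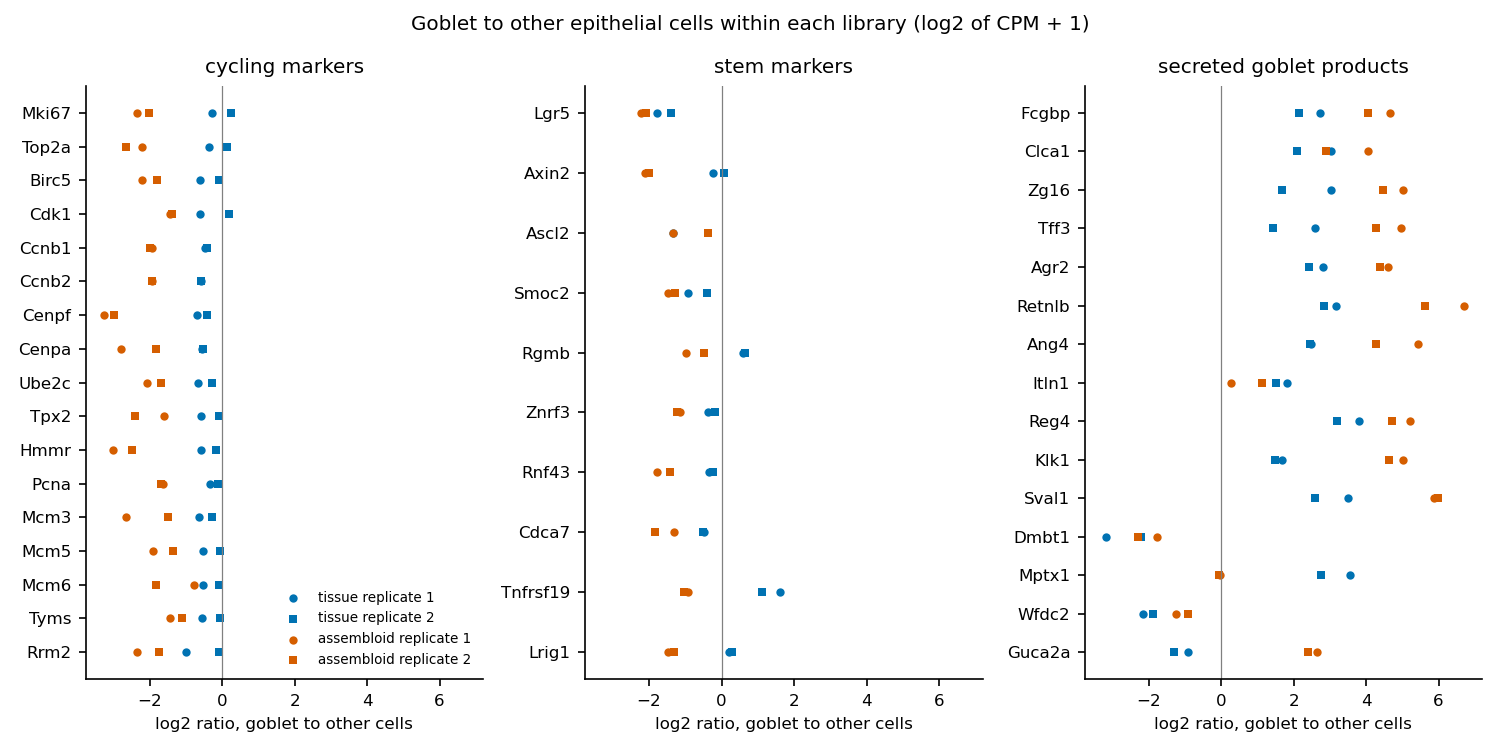
Log2 ratio of goblet to other epithelial cells of the same library (x axis, on CPM + 1) for the cycling, stem and secreted lists, 1 point per gene and library. Cycling genes lie near 0 in tissue and lower in assembloids (Mki67 -0.28 and 0.25 against -2.35 and -2.0), and secreted products lie higher in assembloids.

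By the rule for naming genes, the 5 largest differences upwards were Ror1, Col8a1, Stox2, Dlg2 and Meg3. Col8a1 had log2 ratios of 3.49 and 2.97 in tissue and -1.76 and -2.0 in assembloids (difference 6.09, SE 0.47, edgeR adjusted p = 1.35e-06), and Meg3 had 3.36 and 3.73 against -2.80 and -1.14 (4.98, SE 0.35, adjusted p = 5.25e-07). Stox2 (5.45, SE 0.66, adjusted p = 6.45e-05) and Dlg2 (5.34, SE 0.72, adjusted p = 0.000149) rest on 1 and 3 UMIs in assembloid goblet cells. Ror1 was not enriched in tissue goblet cells, with log2 ratios of -0.01 and -0.22 against -0.93 and -1.70 in assembloids. Its difference (9.34, SE 2.37, adjusted p = 0.0147) rests on no UMI in assembloid goblet cells, so that its size is set by the fit, and its call was lost under DESeq2, at limits of 1% and 5%, with thinned cells and without assembloid replicate 2 (adjusted p = 0.306). The Stox2 call was lost with thinned cells (9.24, adjusted p = 0.0881). The sizes of the other upward genes also moved with the setting, from 3.56 to 14.84 for Meg3, 5.12 to 13.23 for Col8a1 and 3.62 to 13.43 for Dlg2.
The 5 largest downwards were Slc16a3, Sycn, Sprr1a, Chgb and Sprr2a3. Sycn, syncollin of secretory granules, was lower in goblet than in other tissue cells, at 1227 and 1136 against 2878 and 2872 CPM, and higher in assembloid goblet cells, at 54.3 and 71.0 against 3.32 and 5.69 CPM (difference -5.37, SE 0.19, adjusted p = 7.86e-10). Sprr1a had ratios of -1.01 and -1.74 against 2.01 and 2.16 (-5.12, SE 0.37, adjusted p = 8.63e-07) and Sprr2a3, whose near-identical copies could share reads, -2.30 and -2.40 against 1.66 and 1.62 (-4.30, SE 0.15, adjusted p = 7.86e-10). Chgb had -5.53 and -5.63 against -0.08 and -3.21 (-4.63, SE 0.71, adjusted p = 0.000437). Slc16a3 had no UMI in tissue goblet cells (-8.49, SE 1.35, adjusted p = 0.000725), and its size is likewise set by the fit. At a 5% limit the calls of Chgb (-1.66, adjusted p = 0.364) and Slc16a3 (-7.98, adjusted p = 0.0894) were lost, and that of Slc16a3 also with thinned cells (-2.35).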

How the data were processed

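The deposited files are raw UMI count matrices of 10x Genomics 3′ v3 libraries, 1 per sample and not pooled. The authors made these counts with Cell Ranger against mm10. The submitters' processing notes name version 6, and the file headers name version 7.1.0 for the epithelial and 6.0.1 for the stromal libraries. Whether intron reads were counted is not given in the sources used here, and columns of per-sample values not used numbered 0.

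Barcodes with at least 500 genes, at least 1000 UMIs and at most 10% mitochondrial UMIs were kept, with no doublet caller. The members and all 16 gene lists were chosen with earlier results of these data known. Library totals were 99133978 and 108834594 UMIs in tissue, 182709990 and 138380271 in assembloids and 191255856 and 128355905 in organoids. Goblet cells summed to 10169483 and 8452671 UMIs in tissue and 1639876 and 3424234 in assembloids. Intervals and floors (3 counts) cover counting error only.

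UMIs were summed per library and class and tested with edgeR 4.0.16 in R 4.3.3 (filterByExpr, TMM, quasi-likelihood F-test, Benjamini-Hochberg, threshold 0.05), with DESeq2 1.42.0 as an alternative. Each SE was worked back from the quasi-likelihood test, as the absolute log2 difference divided by the square root of its F statistic. Muc2 and Spink4 stayed in the totals and were not tested. A library entered a fit with at least 20 members, so organoids did not. The scripts were tested on simulated counts. Goblet cells against other tissue cells, and the clusters (scanpy 1.11.5, 1500 variable genes, 15 components, 15 neighbours, resolution 0.4), carry no test.

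Named genes were, for goblet against other tissue cells, the 15 highest and 10 lowest by the weaker of the per-library log2 ratios among genes of at least 50 CPM. For tissue against assembloids they were the 10 highest and 10 lowest called genes of mean log2 CPM of at least 5 with no overlap, and for the difference of ratios the 5 highest and 5 lowest called genes of that level. List members were chosen after their values were seen. Replicate numbers were not used as pairs in the reported fits. The deviations of replicate 1 from the group means correlated at 0.0945 over 12092 genes. With only 2 pairs, and with counting noise in low genes, this cannot settle whether same-numbered libraries share an animal or a batch. Alternatives were DESeq2, no filter, no TMM scaling (added after seeing the data), other limits of the rule and of quality, thinning to 1000 UMIs, a replicate block and leaving out each library.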

Additional observations from a re-analysis of the deposited data

Results flagged for a closer look

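In 22 genes the ratio of goblet to other epithelial cells differed between tissue and assembloids by the test of the difference itself (edgeR with a term for each library). The log2 differences were positive for Ror1 (9.34), Col8a1 (6.09), Stox2 (5.45), Dlg2 (5.34), Meg3 (4.98), Chrm3 (4.19), Best2 (2.62), Cenpf (2.44), Axin2 (2.34), Top2a (2.06), Mki67 (1.87), Ndrg1 (1.84) and Rnf43 (1.02). They were negative for Slc16a3 (-8.49), Sycn (-5.37), Sprr1a (-5.12), Chgb (-4.63), Sprr2a3 (-4.30), Guca2a (-3.91), Klk1 (-3.63), Retnlb (-3.45) and Spdef (-1.57). In assembloid goblet cells Ror1 had no UMI, and in tissue goblet cells Slc16a3 had none, so those 2 sizes depend on the fit. Sizes of genes with few UMIs in assembloid goblet cells also moved widely over the alternatives, from 3.56 to 14.84 for Meg3, 3.62 to 13.43 for Dlg2, 5.12 to 13.23 for Col8a1, 4.48 to 12.41 for Stox2, 2.76 to 12.01 for Chrm3 and 1.49 to 8.82 for Axin2. Guca2a, Sycn, Sprr1a and Sprr2a3 were lower in goblet than in other cells in both tissue libraries and higher in both assembloid libraries.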

How the results depend on the processing

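The mean tissue share of 14.1% moved to 30.3% and 3.76% at limits of 1% and 5%. It was 13.2% with at most 5% mitochondrial UMIs, 20.3% with at least 1000 genes, 13.4% without the 6% of cells with most UMIs and 13.5% with no Epcam rule. Both counts of genes 2-fold apart inside tissue stayed within 1.5 times in all 9 other settings. For tissue against assembloid goblet cells, genes higher in tissue were 1500 with DESeq2 and 5890 without TMM scaling, where lower genes were 1410. The 5% limit gave 3000 genes (1433 higher, 1567 lower) and thinning 1792 (878 and 914). Without 1 library, 3320 to 6096 passed, 1386 to 2895 higher and 1934 to 3201 lower, with 3320 without tissue replicate 1 and 3621 without tissue replicate 2. The replicate block gave 5502, of which 5341 were among the 5784. Spdef turned to 0.35 without TMM scaling, 0.48 at 5% and 0.10 when thinned, Fcgbp to -0.31 and Zg16 to -1.76 at 5%. Over 76 genes and 1123 alternatives, 1088 kept direction and side of the threshold, 21 lost the call, 9 gained it and 5 turned sign. For the difference of ratios, genes higher in tissue were 780 with DESeq2 and 2387 without TMM scaling (948 lower). The 5% limit gave 1449 (569 and 880), the 5% mitochondrial limit 1543 (619 and 924) and thinning 475 (187 and 288). Without 1 library, 1292 to 4037 passed, 511 to 2027 higher and 781 to 2010 lower. Fewest passed without either tissue replicate. The median log2 difference, 0.06 as reported, was 0.07 and 0.08 without tissue replicates 1 and 2. Without assembloid replicates 1 and 2 it was 0.21 and 0.31, so the balance moved upwards there. Of 330 alternatives for 22 genes, 308 kept the call and 22 lost it. Where not named otherwise the cause was not tested. That fit already has a library term, so a replicate block adds nothing, and a fit of tissue and assembloids alone is the same as the reported one. The organoid test was not run, since the organoids held 4 and 6 members.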

Other observations

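In organoids the rule found 4 cells in replicate 1 (84000 UMIs) and 6 in replicate 2 (99181 UMIs), given here as values without a test. Spink4 exceeded Muc2 in 4 of 4 and 4 of 6 of them. They held Tff3 at 998 and 1079 UMIs and Agr2 at 1577 and 1139 UMIs, while Zg16, Best2 and Meg3 had none. Mptx1, which had no UMI in 349 assembloid goblet cells, was present with 11 and 202 UMIs (131 and 2037 CPM), and Reg4 with 78 and 305 UMIs. Clca1 had 18 and 2 UMIs. Among the cells that passed in the assembloid stroma libraries, the rule found 0 of 9007 and 1 of 9041.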
